A study of Rattus norvegicus with 35 samples.

Results

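The levels of 8 transcription factors that mark stages of neuron production from the basal progenitors of the olfactory epithelium were followed across age. These were Neurog1, Neurod1, Insm1, Hes6, Hes1, Hes5, Sox2 and Pax6. They were represented by 9 of the 41012 probes of the array, or 8 of its 35535 gene or transcript names. A search for the symbols themselves found 7 probes of 6 genes. The other 2 probes carry older names, Neurod3 for Neurog1 and a provisional locus name for Sox2, and were matched through the RefSeq gene table. Hes6 had 2 probes, and each other gene had 1. All samples were olfactory epithelia of Brown Norway rats hybridized on 35 arrays of 1 colour. Newborn rats were 19 pups of unrecorded sex, 3 to 5 days old, from 4 litters named L1 to L4, with the nasal epithelium of 1 side taken from each. Adult rats were 4 males of 9 weeks, and old rats were 4 males of 22 months that were kept in the laboratory from 3 weeks of age. Both nostrils of each adult and old rat were hybridized separately, and their 2 arrays were averaged so that the rat was the replicate. Because adult and old rats were all male, age and sex cannot be fully separated in comparisons with pups. The labels give no treatment and no genetic change for any group. A level is the log2 of a spot's background-subtracted intensity over the median of its array. In whole epithelium, fewer cells of a type and less RNA per cell cannot be told apart.

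The olfactory epithelium keeps producing sensory neurons throughout life. Globose basal cells divide and pass through a series of states, each set by basic helix-loop-helix factors. Neurog1 marks the immediate neuronal precursor, and Neurod1 follows as the precursor leaves the cell cycle. Insm1, a zinc finger protein, promotes the switch from progenitors that renew themselves to those that divide to give neurons. Hes6 is an unusual member of the Hes family that promotes neuronal differentiation and opposes Hes1. Hes1 and Hes5 are repressors induced by Notch signalling, and they hold back proneural genes. Sox2 and Pax6 are found in progenitors, and both are also expressed in the supporting sustentacular cells.

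The stretches of 4 probes are given because Neurog1 and Sox2 were matched through the RefSeq gene table alone and because Hes6 was read at 2 places. The probe sequences were not aligned to transcripts. Each line holds the first 30 of 60 bases, with positions in the build of the array, rn3. The Neurog1 probe lies at chr17:14334008-14334067 on the plus strand and the Sox2 probe at chr2:120914687-120914746 on the plus strand. The Hes6 probes lie on the minus strand at chr9:90844889-90844948 for probe 1, the brighter, and at chr9:90845489-90845548 for probe 2. The probe of Neurod1 lies at chr3:62121479-62121538 (minus strand), of Insm1 at chr3:134751578-134751637 (plus), of Hes1 at chr11:72662727-72662786 (minus), of Hes5 at chr5:171774881-171774940 (plus) and of Pax6 at chr3:91045183-91045242 (plus). The longest run of bases shared by any pair of the 9 probes was 9.
Neurog1: aagaaaaacgagcatgaaaattcggtttga
Sox2: gcggcggaaaaccaagacgctcatgaagaa
Hes6 probe 1: aagaagggagactcctgtagtgctaccagg
Hes6 probe 2: gtgccaagccatcgatgccactgtctcagc

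Upstream sequence was available for 7 of the 8 genes in RefSeq (build GRCr8), and the letters of 4 short motifs were searched on both strands in the 250 bases before each start. TGGGAA, the core of the site bound by RBPJ, the DNA-binding partner of Notch, was present in 22.1% of 33469 promoters. It occurred 2 times in Hes1, 2 times in Hes5 and 1 time in Pax6. CACGNG, a form of site that Hes repressors bind, was present in 22.5% of promoters, 4 times in Hes1, 2 times in Neurod1 and 1 time each in Neurog1, Hes6 and Pax6. CACNAG, the N box, was in 37.2% of promoters and occurred 4 times in Hes1. CANNTG, the E box bound by proneural factors, was in 65.5% of promoters and can overlap CACGNG where the letters are CACGTG. These matches describe letters only. The stretches printed here show the RBPJ core in Hes1 (chr11:84213076-84213195, minus strand) and in Hes5 (chr5:170804327-170804506, plus strand), CACGNG in Neurog1 (chr17:8367926-8368005, plus strand) and the E box in Hes6 (chr9:99451217-99451286, minus strand). Capitals mark the motif, on either strand.
Hes1: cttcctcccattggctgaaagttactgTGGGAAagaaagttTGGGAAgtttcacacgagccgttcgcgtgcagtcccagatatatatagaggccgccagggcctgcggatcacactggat
Hes5: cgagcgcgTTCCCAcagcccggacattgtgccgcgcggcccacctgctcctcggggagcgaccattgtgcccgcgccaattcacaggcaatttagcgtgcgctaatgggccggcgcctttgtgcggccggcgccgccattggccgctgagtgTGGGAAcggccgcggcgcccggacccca
Neurog1: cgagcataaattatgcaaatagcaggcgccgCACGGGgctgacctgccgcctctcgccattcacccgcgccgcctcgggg
Hes6: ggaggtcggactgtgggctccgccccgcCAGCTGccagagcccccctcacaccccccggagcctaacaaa

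Scan days, array brightness and tissue composition all moved with age. Adult arrays were scanned alone on 2 scan days with an earlier release of the software, L1 shared a scan day with all old rats, and L2 to L4 were scanned on 2 other days. Scan day and age can therefore not be told apart for adult rats, and within 1 scan day newborn and old rats could be compared for L1 alone. The median intensity of an array was 46.0 to 96.5 in newborn, 88.7 to 179 in adult and 40.2 to 59.8 in old rats. The tissue also differed in composition. Summed over its 10 markers, the level of mature olfactory sensory neurons relative to the array median was 202 to 448 in pups, 1205 to 1630.1 in adults and 1839 to 2494 in old rats, with Rtp2 well above background on none of the adult arrays. Over 6 skeletal muscle markers the sum was 15.6 to 479 in pups, against 0.929 to 1.93 in adults and at most 1.07 in old rats, where Acta1, Myh8, Tnnt3 and Myog were well above background on no array. Each of the 4 globose basal cell markers was well above background on at least 1 array of every age, with sums of 42.1 to 109 in pups, 15.0 to 19.8 in adults and 19.1 to 22.1 in old rats. The part of these shifts in the differences below was not tested.

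Newborn epithelium differed from adult epithelium in 6 of the 8 genes (adjusted p under 0.01, limma with Benjamini-Hochberg adjustment over all probes), with 5 higher (26.8% of all probes were) and 1 lower (19.6%). Of all 40991 probes tested, 46.4% were called, and of the transcripts expressed in every group 63.5% were, so that the members were called about as often as expressed transcripts in general. Against old epithelium, 6 genes were called, 4 higher and 2 lower in newborn rats, beside 43.0% of all probes (20.0% higher and 22.9% lower) and 57.1% of those expressed in every group. Adult and old rats differed in 4 genes, 2 higher and 2 lower in adults, beside 31.8% of all probes (11.4% higher and 20.5% lower) and 43.8% of those expressed in every group. The median log2 change of the 8 genes was 0.65 for newborn against adult, beside 0.10 over all probes. It was 0.44 beside -0.04 for newborn against old, and -0.09 beside -0.14 for adult against old. The newborn values enter both of the first comparisons, and the adult and old values each enter 2.

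**Figure D1:**
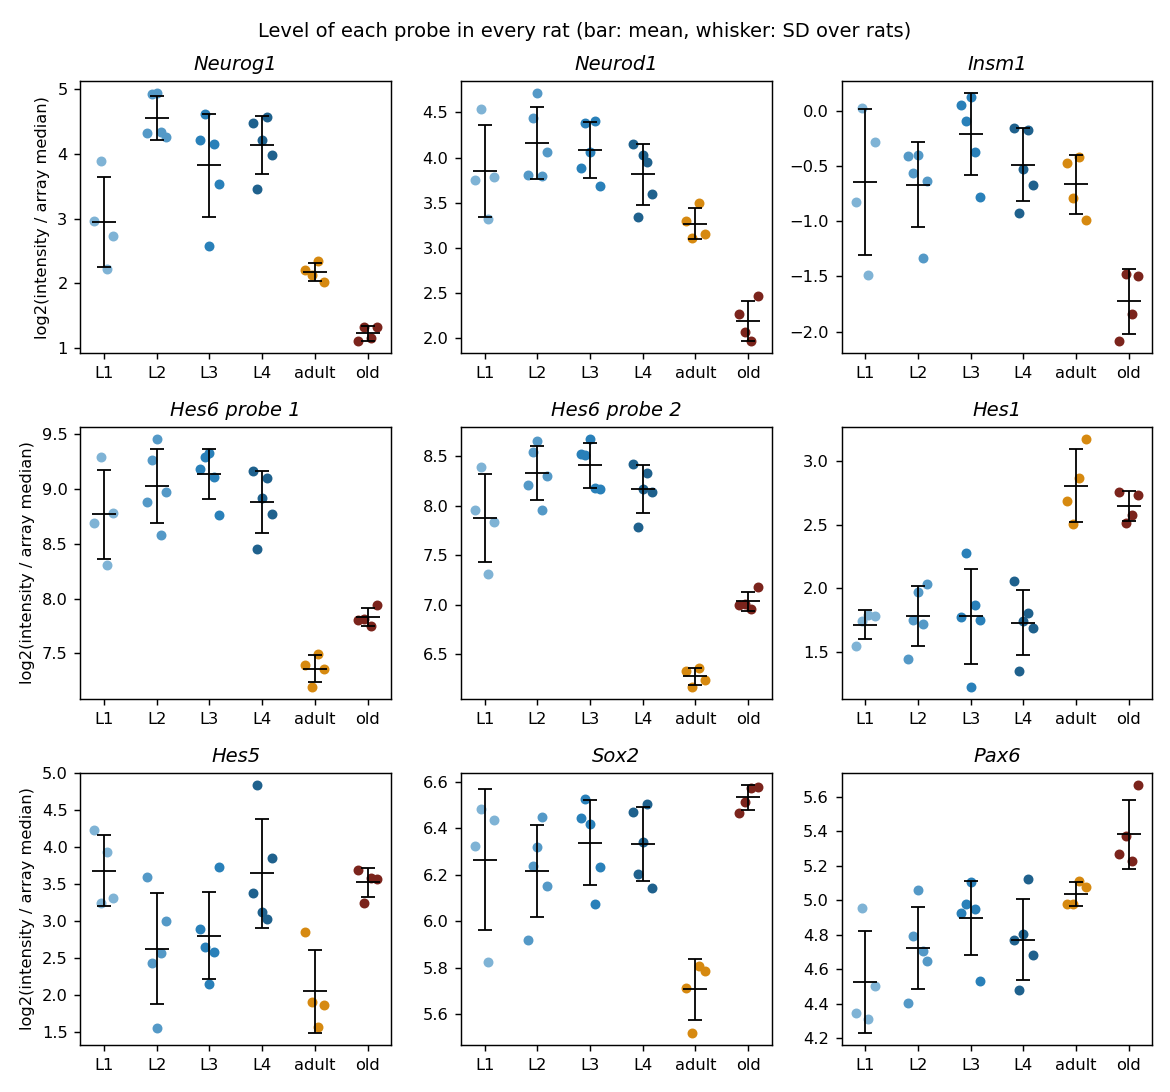
Levels of the 9 probes, as log2 of intensity over the array median, in each rat of the 4 litters and of the adult and old groups, with the mean as a bar and the SD over rats as a whisker. Neurog1 ranged from 2.21 to 4.94 in pups and from 1.105 to 1.32 in old rats, whereas Hes1 was lower in each pup than in any adult or old rat.

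Neurog1, the determination factor of sensory neuron precursors, was highest in newborn rats. Its log2 level over the pups was 2.21 at the lowest, 4.21 at the median and 4.94 at the highest. The 4 adult rats gave 2.21, 2.12, 2.35 and 2.01, and the 4 old rats gave 1.105, 1.32, 1.14 and 1.32. One pup of L1 fell within the adult range, and no pup and no adult reached down to the old rats. Newborn exceeded adult rats by 1.69 ± 0.27 (SE) on the log2 scale, or 3.24-fold (adjusted p = 1.12e-05, limma). This SE rests on the spread of rats within the 6 groups and leaves out the spread between litters. The litter means had an SD of 0.68 (n = 4), and the call was kept with litter means as the newborn replicates. The newborn level was 6.25-fold that of old rats (log2 change 2.64 ± 0.27, adjusted p = 2.23e-08), and Neurog1 was the 1 gene of the 8 that passed 5-fold, as 4.71% of all probes did. It fell short of that mark after normexp, at a log2 change of 2.09, and with L1 alone, at 1.72. No gene of the 8 passed 5-fold in newborn against adult rats (3.84% of all probes) or in adult against old rats (2.28%). The adult level stood 0.95 ± 0.35 above the old level, with a 95% interval from 0.23 to 1.67, and did not pass the threshold (adjusted p = 0.0320, limma). At the same change it passed with the rat (adjusted p = 0.00344) or the slide (0.00850) as a random block. It also passed with every array as a sample, where both nostrils of a rat counted separately, with only the compared groups in the fit (0.000280) and in the methods' t-test (0.00132). Of 20 alternatives these 5 changed the call. With the 75th percentile as the scale (adjusted p = 0.0174, limma) and with quantile normalization (0.0216) it did not pass. After normexp the change was 0.63 (adjusted p = 0.0914).

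Neurod1, which follows Neurog1 in the precursor, ran from 3.32 through a median of 3.96 to 4.71 in the pups. Adult rats gave log2 levels of 3.30, 3.11, 3.49 and 3.16, and old rats 2.26, 2.06, 1.97 and 2.47. The 3 ages thus lay in the order newborn, adult, old, with an overlap between pups and adults only. Neurod1 was 1.64-fold higher in newborn than in adult rats (log2 change 0.71 ± 0.19, adjusted p = 0.00234, limma) and 3.45-fold above the old level (1.79 ± 0.19, adjusted p = 2.85e-08). It also passed the test between adult and old rats, at 2.11-fold (1.08 ± 0.24, adjusted p = 0.000857). Without the adult rat 14 or the adult rat 16 the difference between newborn and adult rats missed the threshold (adjusted p = 0.0129 and 0.0114).

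Insm1, the zinc finger factor of dividing neuronal progenitors, was lowest on average in old rats. The pups spanned -1.49 to 0.12 with a median of -0.41, the adults gave -0.47, -0.79, -0.42 and -0.98, and the old rats -2.09, -1.48, -1.84 and -1.50. Adult values lay inside the range of the pups, and the lowest pup lay within the range of the old rats, which no adult reached. The old level was 2.33-fold below the newborn level (log2 change 1.22 ± 0.22, adjusted p = 4.60e-05, limma) and 2.08-fold below the adult level (1.06 ± 0.28, adjusted p = 0.00349). The difference between newborn and adult rats was 0.16, with a 95% interval from -0.28 to 0.61. Its probe was dim, and was well above background on 5 of the 8 arrays of old rats, on all 8 of adults and on all 19 of pups. The call between adult and old rats was lost without the adult rat 13 or 15 or the old rat 17 or 19 (adjusted p up to 0.0160, limma), and after normexp background correction with quantile normalization, where the change was 0.29 (adjusted p = 0.0228).

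Hes6, the Hes family member that favours differentiation, was higher in every pup than in any adult or old rat at both of its probes. At probe 1 the pups ran from 8.31 through 8.97 to 9.46, the adults gave 7.39, 7.19, 7.50 and 7.36, and the old rats 7.80, 7.81, 7.75 and 7.95. Probe 2 ran from 7.31 through 8.21 to 8.67 in pups, with adults at 6.33, 6.17, 6.36 and 6.24 and old rats between 6.96 and 7.18. Probe 1 stood 3.02-fold higher in newborn than in adult rats (log2 change 1.59 ± 0.15, adjusted p = 3.05e-09, limma) and probe 2 stood 3.78-fold higher (1.92 ± 0.14, adjusted p = 5.34e-11). Against old rats the probes gave 2.18-fold and 2.24-fold. Between adult and old rats the probes differed in their call, with probe 1 at -0.47 ± 0.19 (adjusted p = 0.0528) and probe 2 at -0.76 ± 0.18 (adjusted p = 0.00152). Probe 1 passed at the same change with every array as a sample, with the rat as a random block (adjusted p = 0.00796), with litter means as replicates (0.00327), with only the compared groups in the fit (0.00284) and in the methods' t-test (0.00801). With quantile normalization the changes of probes 1 and 2 became 0.05 and -0.29, and neither passed.

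Hes1, a repressor of proneural genes, was the one gene lower in newborn than in both adult and old rats at every rat. Its log2 level in the pups was 1.23 at the lowest, 1.76 at the median and 2.27 at the highest, against 2.69, 2.51, 2.86 and 3.17 in adults and 2.76, 2.51, 2.58 and 2.73 in old rats. The newborn level was 2.08-fold below the adult level (log2 change -1.06 ± 0.14, adjusted p = 6.99e-07, limma) and 1.86-fold below the old level (-0.89 ± 0.14, adjusted p = 9.22e-06). The litter means lay between 1.72 and 1.78. Adult and old rats differed by 0.16, with a 95% interval from -0.21 to 0.53.

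Hes5, the other Notch-induced repressor, did not follow Hes1. The pups ran from 1.56 through 3.13 to 4.84, the adults gave 2.86, 1.91, 1.57 and 1.87, and the old rats 3.69, 3.25, 3.58 and 3.57. Newborn exceeded adult rats by 1.14 ± 0.32 (2.20-fold, adjusted p = 0.00423, limma), and old exceeded adult rats 2.77-fold (log2 change of adult against old -1.47 ± 0.41, adjusted p = 0.00590). Newborn and old rats differed by -0.33, with a 95% interval from -0.998 to 0.33. The pups spanned the values of both other groups, which did not overlap each other. The call of newborn against adult rats was lost without litter L1 or L4 and without adult rats 14, 15 or 16 (adjusted p up to 0.0288, limma), and that of adult against old rats without any 1 of 3 adult and 3 old rats (adjusted p up to 0.0230). Both were also lost with the 75th percentile as the scale (adjusted p = 0.0153 and 0.0139) and with quantile normalization (0.0104 and 0.0125). The methods' t-test lost both as well (adjusted p = 0.0328 and 0.0294). When each litter was reduced to its mean, the difference between newborn and adult rats did not pass (adjusted p = 0.0106, limma). The nostrils of an adult rat differed by a median of 0.63 in Hes5, against 0.07 to 0.40 for the other probes.

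Sox2, a progenitor factor that sustentacular cells also express, was lowest in adult rats relative to the array median. The pups ran from 5.82 through 6.32 to 6.53, the adults gave 5.71, 5.52, 5.81 and 5.79, and the old rats 6.46, 6.51, 6.57 and 6.58. Sox2 was higher in newborn than in adult rats (log2 change 0.58 ± 0.10, adjusted p = 4.31e-05, limma) and 1.77-fold higher in old than in adult rats (adult against old -0.83 ± 0.13, adjusted p = 2.60e-05). The first difference depended on the scaling of the arrays. With quantile normalization it kept its direction, at 0.20, but did not pass (adjusted p = 0.0345, limma). After normexp background correction and quantile normalization it turned to -0.12 (adjusted p = 0.240). After normexp the second was -0.15 and did not pass (adjusted p = 0.273). Newborn and old rats differed by -0.24, with a 95% interval from -0.46 to -0.03 (adjusted p = 0.0520), and this passed with the 75th percentile as the scale (-0.28, adjusted p = 0.00947), after normexp (-0.27, adjusted p = 0.00718), with every array as a sample and in the methods' t-test.

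Pax6, needed for the formation of the olfactory placode and kept in basal and sustentacular cells, was lowest in newborn rats. The pups ran from 4.31 through 4.77 to 5.12, the adults gave 4.98, 4.98, 5.11 and 5.07, and the old rats 5.26, 5.37, 5.23 and 5.67. No pup reached the old rats, and the newborn level was 1.57-fold below theirs (log2 change -0.65 ± 0.12, adjusted p = 8.60e-05, limma). Against adult rats the change was -0.31 ± 0.12 and did not pass (adjusted p = 0.0370). It passed at -0.43 with the 75th percentile as the scale (adjusted p = 0.000969, limma). With quantile normalization it was -0.63 (adjusted p = 3.10e-06) and after normexp -0.63 (5.56e-07), and both passed. It also passed with every array as a sample and in the methods' t-test (adjusted p = 0.00138). Of 20 alternatives these 5 changed the call. Adult and old rats differed by -0.35, with a 95% interval from -0.67 to -0.02, and by 0.01 after normexp.

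**Figure D2:**
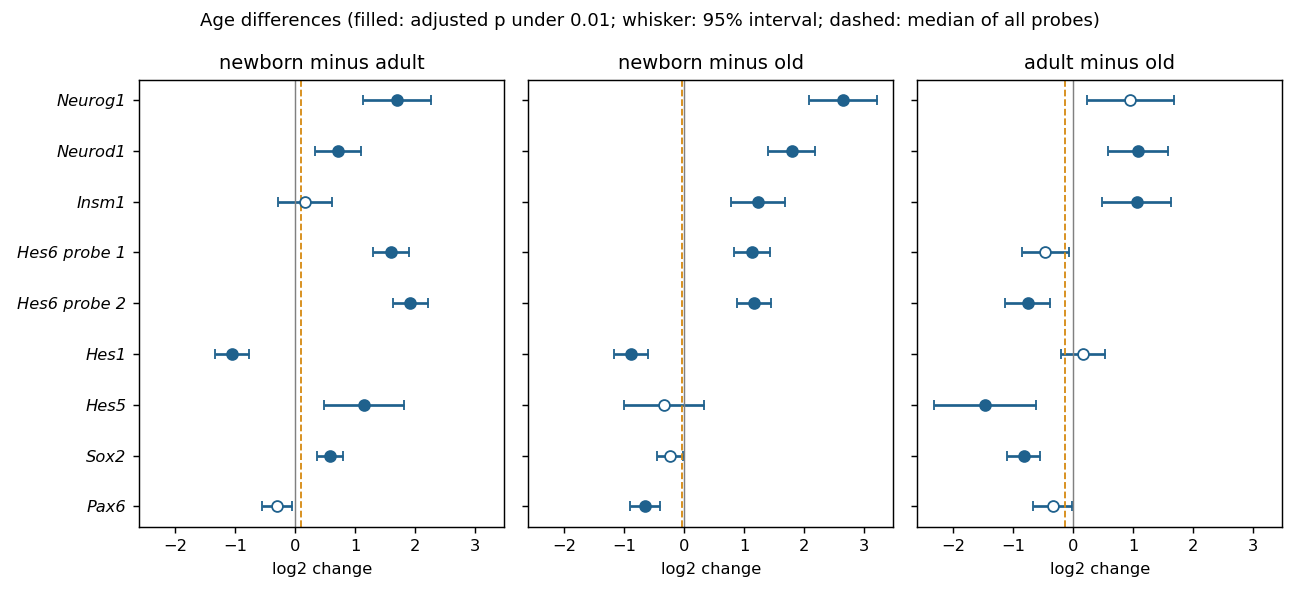
Log2 change of each probe in the 3 age comparisons, with its 95% interval, filled where the adjusted p was under 0.01, and with the median of all probes as a dashed line. Neurog1 had the largest change of the 9 probes between newborn and old rats, at 2.64, and Hes1 lay below 0 in both newborn comparisons.

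Counted by rats rather than by the fit, the groups did not overlap in 3 of the 8 genes for newborn against adult (Hes6, Hes1 and Sox2), beside 26.5% of all probes and 38.7% of those expressed in every group. They did not overlap in 5 genes for newborn against old (Neurog1, Neurod1, Hes6, Hes1 and Pax6), beside 22.4% of all probes and 31.8% of those expressed in every group. Between adult and old rats, where each group held 4 rats, 7 genes did not overlap, beside 43.9% of all probes and 57.7% of those expressed in every group, and Hes1 was the exception. With L1 alone against the old rats of the same scan day, Neurog1 was 1.72 higher (adjusted p = 0.00551, limma), Neurod1 1.66 higher (adjusted p = 0.00227) and Hes1 changed by -0.93 (adjusted p = 0.000262). On that day Hes6 probe 1 stood at 0.94 and Pax6 at -0.85, and both passed the threshold, whereas Hes6 probe 2, at 0.84, did not (adjusted p = 0.0179). Insm1, at 1.08, did not (adjusted p = 0.0388), and Hes5 turned to 0.16 (adjusted p = 0.642).

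The scaling of the arrays moved the whole table as well as some of these values. Relative to the array median, 57.8% of the probes called in newborn against adult rats were higher in newborn, and with quantile normalization 46.8% were. For adult against old rats, 35.7% were higher in adults, and 51.7% with quantile normalization. The median change of all probes was 0.10 and -0.14 in these comparisons, and 0 with the 75th percentile as the scale. Neurog1, Neurod1 and Hes1 kept their direction in both newborn comparisons under the 4 scalings drawn, with Neurog1 at 1.46 to 1.69 against adult rats. Insm1 against old rats was 0.41 after normexp (adjusted p = 9.36e-05, limma), and 1.19 to 1.31 under the other 3 scalings.

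**Figure D3:**
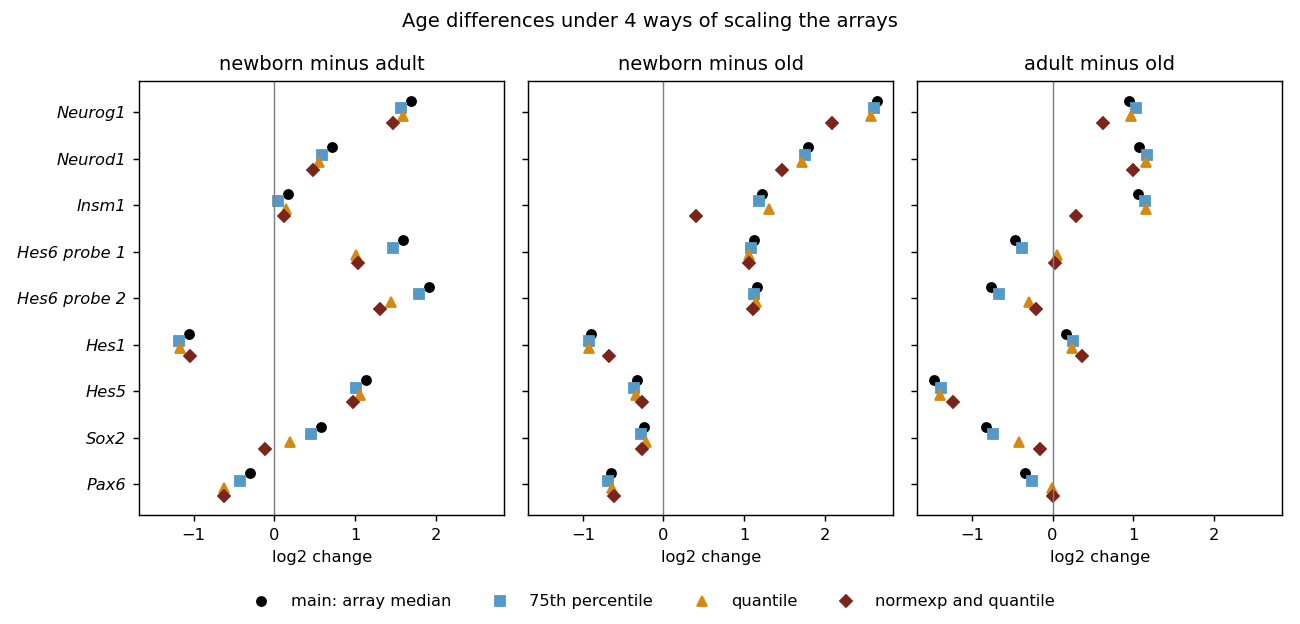
Log2 changes of the 9 probes in the 3 age comparisons under 4 ways of scaling the arrays: the array median, the 75th percentile, quantile normalization, and normexp background correction with quantile normalization. Sox2 in newborn against adult rats ran from 0.58 to -0.12, whereas Hes1 stayed below 0 in both newborn comparisons.

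Differences between a pair of genes within the same array do not depend on how that array was divided. Over litter means, Neurog1 minus Hes1 was 2.11 ± 0.66 (SD, n = 4) in newborn rats, -0.63 ± 0.35 in adults and -1.42 ± 0.19 in old rats. The shift from adult to newborn rats was 2.75, and from old to newborn rats 3.54. Hes6 minus Hes1 was 2.65 higher in newborn than in adult rats and 2.02 higher than in old rats. Neurod1 minus Sox2 was -2.31 ± 0.20 (SD, n = 4) in newborn and -2.44 ± 0.13 in adult rats, a difference of 0.13 that did not pass (exact permutation p = 0.371), and was 2.03 and 1.90 higher in these than in old rats. In 8 of the 9 comparisons the groups did not overlap, and the exact two-sided permutation test gave p = 0.0286, the smallest it can give with 4 against 4 (adjusted p = 0.0321 over the 9). The level of one probe was not set against that of another.

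**Figure D4:**
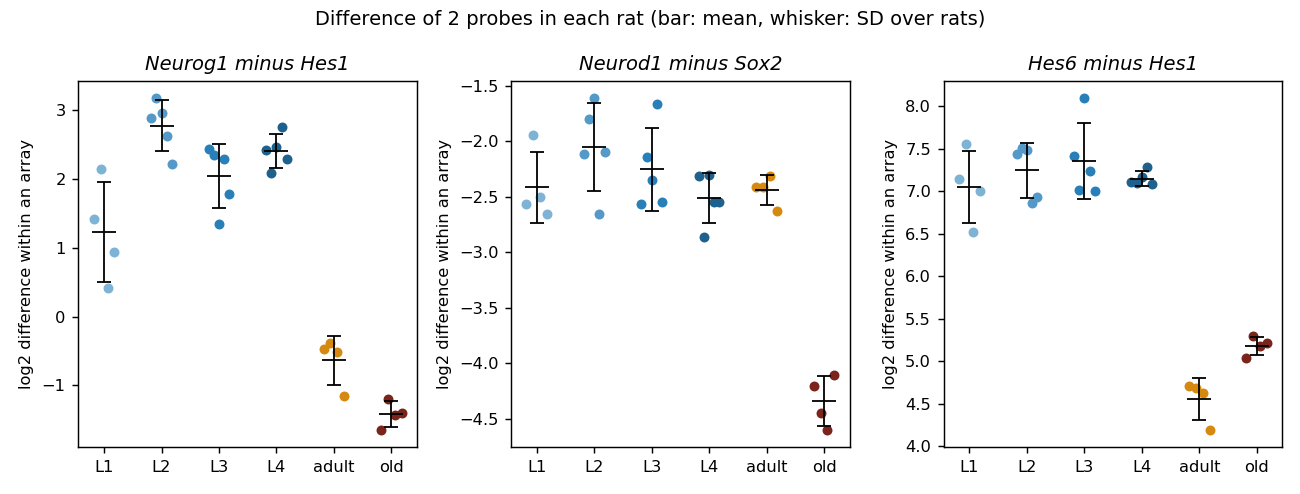
Difference in log2 level between a pair of probes in each rat, for Neurog1 minus Hes1, Neurod1 minus Sox2 and Hes6 minus Hes1, with the mean as a bar and the SD over rats as a whisker. Neurog1 minus Hes1 averaged 2.11 over the litters, -0.63 in adult rats and -1.42 in old rats.

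Among the 4 litters, Neurog1 was the 1 gene of the 8 that differed (moderated F test in limma, adjusted p = 0.00391), beside 21.6% of all probes. Its mean level was 2.95 ± 0.70 (SD, n = 4) in L1, 4.56 ± 0.34 (n = 5) in L2, 3.82 ± 0.80 (n = 5) in L3 and 4.14 ± 0.45 (n = 5) in L4. L1 was the lowest litter, and it was also the litter scanned on a day of its own among the pups, so that litter and scan day cannot be told apart. The call was lost without any 1 of 3 pups of L1 or 1 pup of L2. Hes5 came next (adjusted p = 0.0488), with mean levels of 3.68 and 3.65 in L1 and L4 against 2.63 and 2.81 in L2 and L3, and Hes1 had the smallest F (adjusted p = 0.995).

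Within litters many pairs of these genes varied together from pup to pup. Of the 28 pairs, 15 were correlated over the 19 pups at an adjusted p under 0.05, 10 positively and 5 negatively (each level centred on its litter mean, 100000 permutations within litters, two-sided). The share of correlated pairs among all probes was not computed, so the count cannot be read as particular to these genes. Neurod1 and Hes6 gave a Pearson r of 0.91 (permutation p = 3.00e-05, adjusted p = 0.000280) and a Spearman rho of 0.91 (permutation p = 5.00e-05), and r was 0.86 without the 2 pups farthest from the median of Neurod1. Insm1 and Hes6 gave r = 0.88 (permutation p = 2.00e-05, adjusted p = 0.000280), rho = 0.87 (permutation p = 2.00e-05), and r = 0.83 without 2 pups. The 5 negative pairs with an adjusted p under 0.05 all involved Hes5. Hes5 and Pax6 gave r = -0.89 with p at 1e-05, the smallest these permutations can give (adjusted p = 0.000280), rho = -0.89 with the same p, and r = -0.86 without 2 pups. Hes1 went with Neurog1 in the pups, at r = 0.65 (permutation p = 0.00816, adjusted p = 0.0208), rho = 0.65 (permutation p = 0.0123), and r = 0.57 without 2 pups. The 11 pups of 1 scan day gave r = 0.96 for Neurod1 and Hes6 and r = -0.96 for Hes5 and Pax6. The other scan days held 4 pups each, too few for a value.

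Levels of other cell types went with the same pups. Of 112 relations between the 8 genes and the summed level of the 14 marker lists, 27 had an adjusted p under 0.05 over the 19 pups. The share of such relations over all probes was not computed, so this count cannot be read as particular to these genes either. Hes6 rose and fell with the mature sensory neuron markers, at r = 0.92 (p at 1e-05, the smallest that permutations can give, adjusted p = 0.000747), rho = 0.89 (permutation p = 4.00e-05), and r = 0.89 without 2 pups. Hes5 went with the olfactory ensheathing glia markers, at r = 0.79 (permutation p = 0.000750, adjusted p = 0.00764), rho = 0.70 (permutation p = 0.00256), and r = 0.72 without 2 pups. Sox2 went with the sustentacular cell markers, at r = 0.82 (permutation p = 5.00e-05, adjusted p = 0.00140), rho = 0.86 (permutation p = 3.00e-05), and r = 0.84 without 2 pups. Neurog1 went with the globose basal cell markers, at r = 0.91 (permutation p = 2.00e-05, adjusted p = 0.000747), rho = 0.79 (permutation p = 0.000140), and r = 0.88 without 2 pups. The lists did not single out 1 gene each. The mature neuron list also went with Neurod1 (r = 0.88), Insm1 (0.84), Pax6 (0.82) and Neurog1 (0.68), and inversely with Hes5 (-0.75). Pax6 also went with the sustentacular list (0.82), and Sox2 with that of ciliated respiratory cells (0.75). Hes5 went inversely with the sustentacular list (-0.76). The list of olfactory bulb or other brain tissue went with Hes5 (0.69) and inversely with Pax6 (-0.70), Hes1 (-0.67), Neurog1 (-0.64) and Neurod1 (-0.62). The globose basal list also went with Neurod1 (0.80) and Hes6 (0.74). The others of the 27 relations are not listed. The part of these lists in the correlations between the genes was not tested. This family of relations was added after the data were seen.

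**Figure D5:**
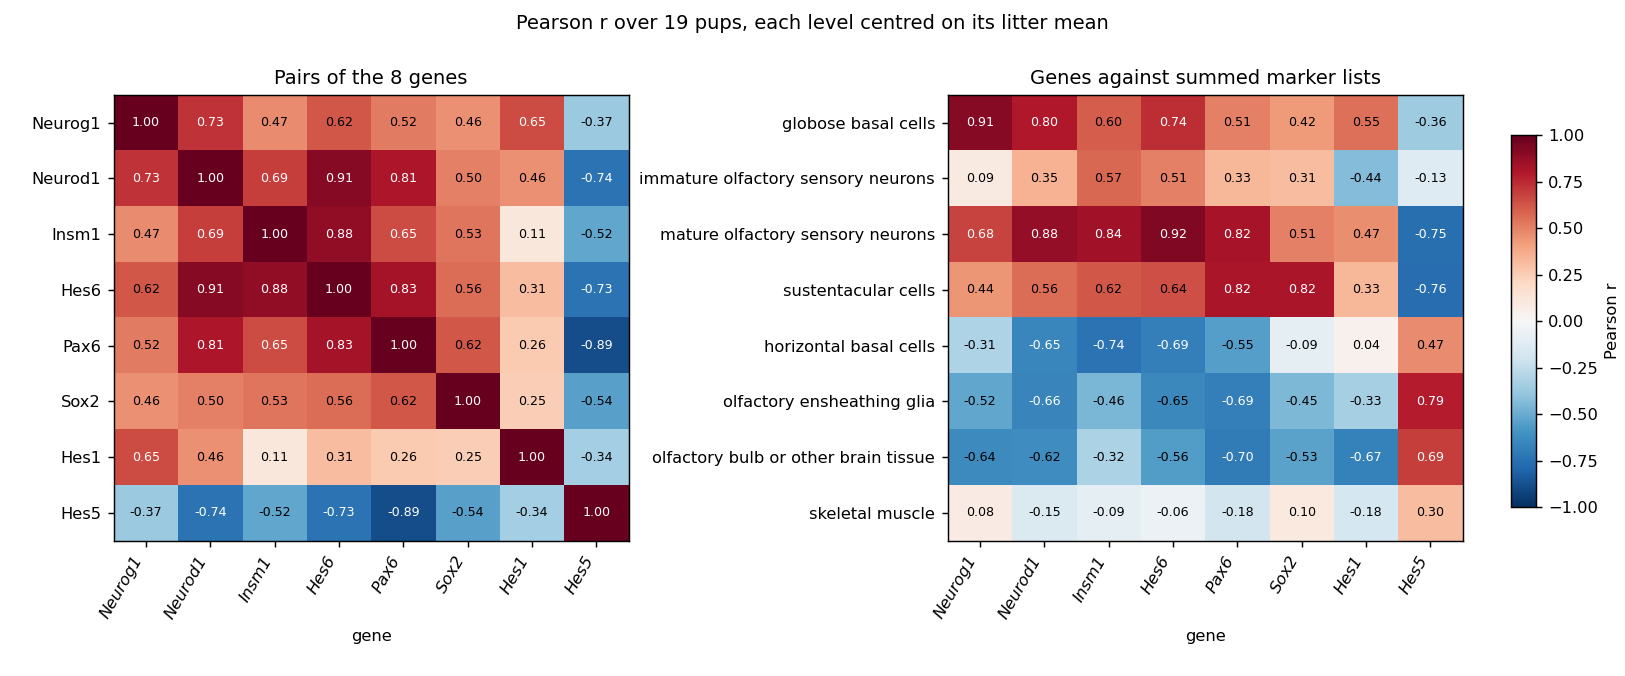
Pearson r over the 19 pups, with each level centred on its litter mean, for the pairs of the 8 genes (left) and for each gene against the summed level of 8 of the marker lists (right). Hes5 was negative with each of the other 7 genes, down to -0.89 with Pax6, and positive with ensheathing glia at 0.79.

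The genes whose levels followed each factor most closely over the 19 pups were taken from 16792 named probes expressed in at least 1 group, 3 for each factor, as a description with no test. Hes6 was followed by Mfng at r = 0.98, a glycosyltransferase that modifies Notch receptors, then by Abcd2 and Mical2. Mfng was also higher in newborn than in adult rats, by 1.13 on the log2 scale (adjusted p = 5.09e-06, limma). Insm1 was followed by Kcnk10, by Elavl4, an RNA-binding protein of neurons, and by Fstl5, at 0.92 to 0.93. Hes5 was followed by Syndig1, by Ntrk2, the receptor for brain-derived neurotrophic factor, and by Arhgap20, at 0.90 to 0.93. For Neurog1 these were Ino80, Nuak2 and Ptchd1, for Neurod1 Kifbp, Ssx2ip and Napg, for Hes1 Trim14, Rpgrip1l and Nek7, for Sox2 Ralgds, Htatip2 and Hgs, and for Pax6 Snap29, Ssbp2 and Sh2b2, at 0.89 to 0.96.

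The remaining genes of the Notch pathway moved in both directions. Of 34 on the array, 14 were higher (26.8% of all probes were) and 11 lower (19.6%) in newborn than in adult rats. Their median log2 change was -0.05. With the 75th percentile as the scale 11 were higher and 12 lower, with quantile normalization 13 and 14, and after normexp 9 and 15. Dll3, a Delta family member, was higher by 2.16 ± 0.16 (adjusted p = 4.69e-11, limma). Dlk1 did not rise well above background in any adult or old rat. Relative to the array median, Dlk1 was at least 4.62-fold higher in newborn than in adult rats. The limma fit, which used the adult signal below background, gave adjusted p = 2.42e-08, and after normexp the log2 change was 0.93. Hey1, a Notch-induced repressor related to Hes1, was lower in newborn rats, with a log2 change of -1.65 ± 0.16 (adjusted p = 6.58e-09). Hes7 changed by -2.43, but its adult value rests on 1 of the 8 adult arrays, the others being flagged as outliers. Against old rats 8 were higher (20.0% of all probes) and 12 lower (22.9%). Between adult and old rats 7 were higher (11.4%) and 11 lower (20.5%) in adults. Hes2 and Hes3 were among these 11. Like Dlk1, Hes3 did not rise well above background in any rat of these ages. Its call therefore does not show a measured difference in level.

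Of 16 basic helix-loop-helix partners and antagonists, 12 were higher (26.8% of all probes were) and 2 lower (19.6%) in newborn than in adult rats. Their median log2 change was 0.85, and 9 were higher after normexp. Neurod2 was higher by 3.92 ± 0.54 (adjusted p = 1.37e-06, limma) and by 1.64 after normexp, though it was well above background on only 4 of 8 adult arrays. The 2 that were lower were Id4, at -0.92 ± 0.12 (adjusted p = 1.06e-06), and Id1, at -0.84 ± 0.14 (adjusted p = 2.52e-05), both inhibitors that bind helix-loop-helix proteins and keep them from DNA. Against old rats 6 were higher (20.0% of all probes) and 4 lower (22.9%), and none was higher in adult than in old rats (11.4%). Between these 6 were lower in adults (20.5% of all probes), Neurog2 and Neurog3 among them. Both genes were well above background on no adult array, on 6 and 5 arrays of pups and on 6 and 7 of old rats. They were also among the 12 higher in newborn than in adult rats. With quantile normalization 2 were higher and 4 lower in adults.

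Among 19 other transcription factors of the olfactory lineage, 7 were higher (26.8% of all probes were) and 3 lower (19.6%) in newborn than in adult rats. With quantile normalization 4 were higher and 4 lower. Sox4 was higher by 1.84 ± 0.12 (adjusted p = 8.70e-12, limma) and Rest, the repressor of neuronal genes, by 1.33 ± 0.10 (adjusted p = 1.71e-10). Myt1, at -1.89 ± 0.19, and Ebf2, at -1.32 ± 0.18, were lower. Myt1 was well above background on 7 of the 19 arrays of pups, and its change was -0.54 after normexp. Against old rats 8 were higher (20.0% of all probes) and 2 lower (22.9%). Between adult and old rats 2 were higher (11.4%) and 3 lower (20.5%) in adults, but 5 higher and 2 lower with quantile normalization and after normexp.

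Of the 4 pathway lists, the proliferation genes had the highest median change in both newborn comparisons. Of 18, 17 were higher and none lower in newborn rats than in adults and, likewise, than in old rats, with median log2 changes of 2.24 and 3.11. Over all probes 26.8% were higher and 19.6% lower than in adults, and 20.0% and 22.9% than in old rats. Ccne1, the G1 to S cyclin, was higher than in adults by 3.38 ± 0.10 (adjusted p = 3.04e-17, limma), and Cdk1 by 2.97 ± 0.11 (adjusted p = 1.22e-15). The smallest called changes were those of Pcna, 0.55 ± 0.13, which turned to -0.08 after normexp, and Ccnd1, 1.28 ± 0.14. Between adult and old rats 12 were higher in adults (11.4% of all probes) and 1, Ccnd1, was lower at -0.80 (20.5% of all probes). None was lower with quantile normalization. Of 8 markers of immature sensory neurons, 7 had higher levels in newborn than in adult rats and 8 than in old rats, but 3 than in adults with quantile normalization. Of 10 markers of mature neurons, 9 were lower than in adults and 10 than in old rats.

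Other cell types were read from their marker lists, as counts called in newborn against adult rats. Over all probes 26.8% were higher and 19.6% lower, and several of the counts below lie near these shares. Of 7 sustentacular markers 1 was higher and 5 were lower, of 6 ensheathing glia markers 2 were higher and 1 was lower, and of 6 horizontal basal cell markers 1 was higher. Of 4 globose basal markers 2 were higher and 1 was lower. All 6 skeletal muscle and all 3 red cell markers were higher, as were 2 of 6 for bone and cartilage, 2 of 5 for macrophages, 1 of 8 for brain and 1 of 4 for vomeronasal neurons. Of 5 Bowman gland markers 1 was higher and 1 lower, and of 4 markers of ciliated respiratory cells 1 was lower.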

How the data were processed

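RNA of 35 rat olfactory epithelia was hybridized with 1 dye to Agilent whole rat genome arrays. The authors deposited the Feature Extraction output, in which the intensity of each spot is corrected for background but not normalized between arrays (Feature Extraction 9.5.1.1 for adult rats and 9.5.3.1 for the others). They also deposited a matrix of GeneSpring ratio values, used as an alternative only, which rest on division of every array by its median and then of every probe by 1 value. Of its 41012 lines, 40939 matched the scanner values up to 1 constant. The members and lists were chosen with earlier results of these data known.

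Control spots and outlier spots (4189 over all arrays) were left out, and spots of a probe averaged. Intensities were divided by the array median over noncontrol spots, set to at least 0.01 and converted to log2, and both arrays of each adult and old rat were averaged. The brightest probe stood for a gene. Expressed in every group means well above background and neither saturated nor nonuniform on at least 3 arrays of each litter and on 6 of 8 arrays of adult and of old rats. Gene names came from the array, updated by accession (10735 probes) or synonym (3719 probes). Probe positions are those of the deposited files, in rn3.

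Levels were fitted with limma 3.58.1 in R 4.3.3 over 6 groups (L1 to L4, adult, old), with newborn as the mean of the litters, and p-values were adjusted over all probes (Benjamini-Hochberg, call under 0.01). The fit was tested on simulated data. Pups of a litter share a dam, and the SE and p of the newborn comparisons leave out the spread between litters. The number of arrays limits the precision. Genes named with the factors were the 3 highest correlations per factor among 16792 probes expressed in at least 1 group whose name gave a current symbol. From each pathway list the 2 largest and 2 smallest called changes between newborn and adult rats were named. One gene that this rule picks is not reported here. Where no array of a group measured a gene well above background, its change is given as at least a fold, against the higher of its own signal and the lowest signal well above background on each array. Alternatives covered scaling, background, the authors' matrix, floors, blocks, filters, the methods' t-test and leaving out each rat or litter.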

Additional observations from a re-analysis of the deposited data

Results flagged for a closer look

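In litter L2, Insm1 of rat 24 stood at -1.33 on the log2 scale, apart from the other pups of its litter by a gap that Dixon's test counts as an outlier. This was 1 of 54 groups of 4 or 5 rats examined, and chance flags about 1 in 20. Neurog1 differed between the litters (adjusted p = 0.00391, limma), and its difference from adult or old rats therefore differed between litters too. L1, the lowest litter, was scanned on another day than the other litters, so that litter and scan day cannot be told apart.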

How the results depend on the processing

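Over the settings tried, 5 values for single genes changed sign. With normexp background correction and quantile normalization, Sox2 in newborn against adult rats was -0.12, Hes6 probe 1 in adult against old rats 0.029 and Pax6 in adult against old rats 0.011. With quantile normalization alone Hes6 probe 1 in adult against old rats was 0.053. With L1 alone against old rats Hes5 was 0.16. The number of the 8 genes called in adult against old rats was 4, but 2 after normexp and 7 with every array taken as a sample, and 2 to 4 when leaving out each rat or litter. Between litters the number was 1, and 0 to 1 when leaving out each pup. After normexp, Neurog1 minus Hes1 differed by 0.26 between adult and old rats (exact permutation, adjusted p = 0.286), Hes6 minus Hes1 by -0.34 (exact permutation, adjusted p = 0.0643), and Neurod1 minus Sox2 by 0.59 between newborn and adult rats (exact permutation, adjusted p = 0.0367). The pairs of genes correlated over pups numbered 15, and 8 to 16 when leaving out a pup or litter, with 9 without L1 and 8 without L4. The causes were not tested. With 3 rats against 4, the exact test cannot pass the threshold, so those differences were compared by value. No paired analysis was possible because rat numbers are not shared between groups. Dim probes such as Insm1 are limited by signal over background.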
